A study of Mus musculus with 8 samples.

Results

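The genes described here are 33 markers of vascular endothelium, the cell layer that lines blood vessels. They are pan-endothelial, arterial and capillary genes taken from a list of mouse symbols, and all 33 were found among the 18395 genes of the count table. The tissue was adipose tissue of mice with a knockout of Kindlin-2 (encoded by Fermt2, an adaptor that activates integrins) in brown adipocytes (KO) and of control mice (WT), with 4 libraries in each group. Mice of both groups had spent 6 h at 4 °C, so every library comes from cold-exposed tissue and no warm group is compared here. The labels state neither strain, sex, age and depot nor the promoter that drove the deletion. Since no label says whether each library is a separate animal, the tests measure only how these libraries spread, which may be technical.

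Endothelial cells are held together by adherens and tight junctions, carry a surface coat of sialomucins and glycoproteins, and keep their identity through transcription factors of the ETS and SOXF families. In brown fat, a dense capillary bed brings fatty acids, glucose and oxygen to the thermogenic adipocytes and carries heat away. Brown adipocytes also release angiogenic factors such as VEGF-A, which act on endothelial receptors. The endothelium itself is not the cell type in which Kindlin-2 was targeted according to the study design. In whole tissue, a change in the number of endothelial cells and a change in RNA per cell cannot be told apart.

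Library totals ran from 33672272 to 43253559 counts in WT and from 35734373 to 40927141 in KO. Levels are given as CPM, a gene's share of its library after TMM scaling (trimmed mean of M values), with factors of 0.878 to 0.948 for WT and 1.05 to 1.16 for KO. Ucp1, the uncoupling protein of brown fat, was at 5082 to 6576 CPM in WT and at 1792 to 4301 CPM in KO, below every WT library (log2 fold change -0.88 ± 0.25, adjusted p = 0.131, edgeR). Fermt2 was at 201 to 244 CPM in WT and 132 to 192 in KO, lower in every KO library. Its log2 fold change was -0.45 ± 0.14 (SE) with an adjusted p of 0.134 (edgeR quasi-likelihood test, Benjamini-Hochberg), and -0.35 without KO replicate 2. The gene is also expressed by cell types of the tissue that were not targeted, so it checks the labels only in part. KO replicate 2 and WT replicate 3 stood apart: the median rank correlation of each with the other libraries was 0.9703 and 0.9424, against 0.9767 to 0.9824 for the rest. WT replicate 3 held 33637 CPM of skeletal muscle markers, against 3.32 to 219 elsewhere. KO replicate 2 held the most T and NK cell markers, 157 CPM against 2.99 to 33.6, and the most macrophage markers, 569 CPM against 174 to 311. Results are therefore given with all 8 libraries and without KO replicate 2, and in part without WT replicate 3 as well.

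Promoter sequence was matched by symbol for 15 of the 33 genes, as 19 promoters of RefSeq (GRCm38.p6). The windows cover 250 to 51 bases before the annotated start. Erg and Fli1, both described below, are ETS-family factors, so each window was searched on both strands for CAGGAAG, a form of the ETS motif. It was found in 6 of the 19 promoters, belonging to Emcn, Egfl7, Rasip1, Ushbp1 and Cd34, and in 8.42% of all 32851 promoters. The shorter CAGGAA, which lies within it, was in 7 of the 19 and in 21% of all. The other ETS forms searched, CCGGAAG (3.98% of all) and CCGGAA (8.03%), were in 0 of the 19, as was the E-box CACGTG (4.34%). The SOX forms AACAAT and ACAAAG were in 2 and 4 of the 19, against 7.96% and 13.6% of all. These 7 motifs were searched as letters only, and a match is not a binding site. The windows of 3 genes that rose without KO replicate 2 and hold the motif (Emcn, Rasip1 and Cd34) are printed with that of Cldn5, which with Hey1 had the log2 fold change nearest 0. They were chosen by fold change and motif together, and whether the 2 go together was not tested. Without KO replicate 2, Egfl7 and Ushbp1 also hold the motif at log2 fold changes of 0.47 and 0.88. Tmem255b and Erg hold no match, at 1.16 and 0.82. None of these last 4 genes reached an adjusted p under 0.05 (edgeR). Capitals mark CTTCCTG, the reverse complement of CAGGAAG, and the Cldn5 window holds no match on either strand. All 4 are on the plus strand, at chr3:137340828-137341027 for Emcn, chr7:45627287-45627486 for Rasip1, chr1:194938571-194938770 for Cd34 and chr16:18776597-18776796 for Cldn5.
Emcn: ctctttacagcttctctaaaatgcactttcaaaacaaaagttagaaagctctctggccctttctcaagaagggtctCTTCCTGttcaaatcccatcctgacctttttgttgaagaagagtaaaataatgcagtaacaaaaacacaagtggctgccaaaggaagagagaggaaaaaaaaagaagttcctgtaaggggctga
Rasip1: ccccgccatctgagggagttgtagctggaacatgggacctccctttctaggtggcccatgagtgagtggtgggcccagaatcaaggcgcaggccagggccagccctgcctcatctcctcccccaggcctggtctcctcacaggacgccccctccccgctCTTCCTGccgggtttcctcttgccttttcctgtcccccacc
Cd34: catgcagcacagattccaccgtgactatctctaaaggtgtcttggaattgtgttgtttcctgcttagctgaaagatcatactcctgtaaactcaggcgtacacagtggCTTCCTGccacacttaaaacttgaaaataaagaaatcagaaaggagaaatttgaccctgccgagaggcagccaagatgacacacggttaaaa
Cldn5: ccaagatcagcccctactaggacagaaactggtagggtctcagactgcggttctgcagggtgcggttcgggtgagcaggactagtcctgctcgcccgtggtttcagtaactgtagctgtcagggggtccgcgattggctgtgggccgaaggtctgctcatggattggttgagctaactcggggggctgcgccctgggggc

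The endothelial markers were higher in KO than in WT almost throughout the list, but no gene passed the test when all 8 libraries were used. Of the 33 members, 32 had a log2 fold change above 0, against 50.5% of all genes tested, and 31 were above 0.1. The exceptions were Cldn5 and Hey1, at -0.00 and 0.00. The median log2 fold change was 0.56 (quartiles 0.43 and 0.67), against 0.00 (-0.25 and 0.29) over the 13901 genes tested. All 33 passed the filter on low counts. The members were chosen with earlier results of these data known, so their shares, here and below, describe the list and are not independent support.
With edgeR and Benjamini-Hochberg adjustment over all genes, 0 members were called at an adjusted p under 0.05, as were 0.0% of all genes. The smallest adjusted p among the members was 0.0981, for Icam2. At an unadjusted p under 0.05, 21 members were higher, against 10.4% of all genes. DESeq2 called 13 members, against 4.0% of all genes higher in KO. Limma-voom called 0, and with sample quality weights 16, against 2.94%. Scaling by total library size only called 13, against 6.17%, and moved the median of all genes to 0.26. In 7 members, Esam, Icam2, Cd34, Erg, Fli1, Ushbp1 and Sparcl1, every KO library was above every WT library, against 5.8% of all genes.

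**Figure D1:**
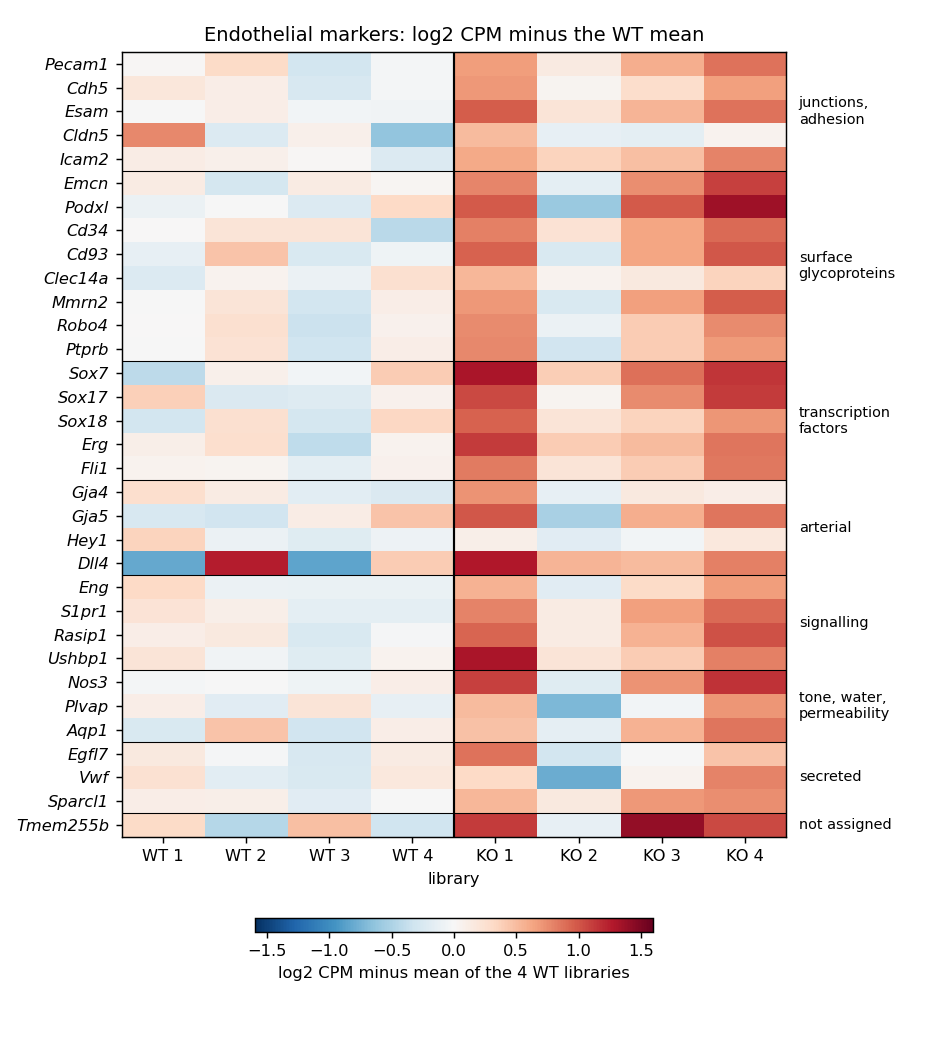
Heat map of the 33 endothelial markers (rows, grouped by role) in the 8 libraries (columns), coloured by log2 CPM minus the mean of the 4 WT libraries. Columns KO 1, KO 3 and KO 4 are red in most rows, KO 2 is pale, and Cldn5, Hey1 and Dll4 do not follow the other rows.

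KO replicate 2 differed from the other KO libraries across the list. The mean log2 level of the 33 markers relative to the WT mean was 0.80, 0.48 and 0.79 in KO replicates 1, 3 and 4 and -0.05 in KO replicate 2, while the WT libraries ran from -0.15 to 0.08. KO replicate 2 was the lowest KO library for 31 of the 33 markers, a rank it held for 30.9% of all genes tested. It lay within the WT range for 19 markers, above it for 7 and below it for 7. On this scale KO replicate 2 was level with WT, and the other 3 KO libraries were above every WT library.
KO replicate 4 was the highest of all 8 libraries for 17 markers and KO replicate 1 for 13. WT replicate 3 was the lowest WT library for 19 markers, against 30.3% of all genes, and without it the median log2 fold change of the 33 was 0.49.
Without KO replicate 2, 14 members rose at an adjusted p under 0.05 and 0 fell (edgeR, 4 WT against 3 KO), against 1.7% of the 14027 genes tested that rose and 2.57% called in either direction. The median log2 fold change of the 33 was then 0.70, against -0.02 over all genes. All 33 were above 0, against 48.3% of all genes, and 28 had an unadjusted p under 0.05, against 11.8%. In 24 members all 3 KO libraries were above all WT libraries, against 12.0%.
These 14 calls are close to the threshold: 0 members were called without robust estimation, with the smallest adjusted p among the members at 0.0501. When a further library was left out, 0 were called without WT replicate 1, KO replicate 1 or KO replicate 4, and 1, Podxl, without WT replicate 4. Without WT replicate 2, 8 were called, 7 of them among the 14, and without KO replicate 3, 9 were called, 8 of them among the 14. Leaving out WT replicate 3 together with KO replicate 2 left 14 called, against 1.82% of all genes that rose; 13 of the 14 were shared, with Tmem255b called in place of Cd93. In that comparison 32 members were above 0 (51.1% of all genes), 26 had an unadjusted p under 0.05 (11.7%), and 24 did not overlap (15.4%). The median log2 fold change of the 33 was 0.63 there, against 0.01 over all genes. Other tools and scalings called from 12 to 27 members without KO replicate 2. Limma-voom called 12, upper-quartile factors gave 13, and limma-voom with quality weights gave 22 (5.7% of all genes higher). DESeq2 called 25 (6.53%), and total library size only gave 27 (12.1%). Where no share is given for a setting, the share over all genes was not counted, so those member counts have no background to be set against.

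**Figure D2:**
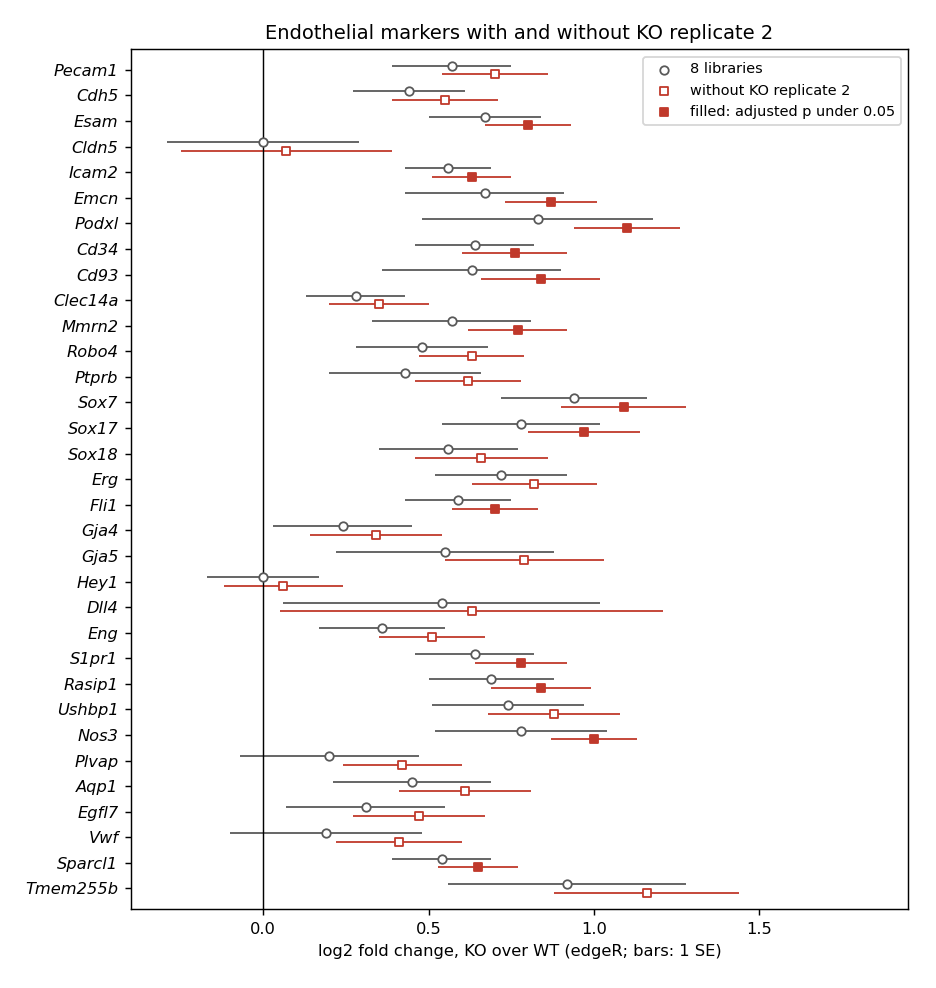
Log2 fold change of KO over WT for each of the 33 markers (edgeR, bars 1 SE), with all 8 libraries (circles) and without KO replicate 2 (squares, filled where the adjusted p was under 0.05). No circle passed the threshold, 14 squares are filled, and every square lies to the right of its circle.

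Among the junction and adhesion proteins, 4 of 5 were higher at an unadjusted p under 0.05 with 8 libraries, and 2 of 5, Esam and Icam2, rose without KO replicate 2. Esam, an adhesion molecule of endothelial tight junctions, was at 196, 212, 192 and 189 CPM in WT replicates 1 to 4 and at 385, 227, 286 and 360.4 CPM in KO replicates 1 to 4. The 4 WT libraries were close together and every KO library was above them, with KO replicate 2 the nearest. Its mean was 197 ± 10 CPM in WT and 315 ± 72.1 in KO (SD, n = 4). By edgeR the log2 fold change was 0.67 ± 0.17 (SE; adjusted p = 0.103), or 0.80 ± 0.13 (0.0322) without KO replicate 2.
Icam2, a ligand for leukocyte integrins that resting endothelium carries, was at 33, 32.3, 30.9 and 26.2 CPM in WT and at 46.4, 38.9, 42.6 and 52.7 CPM in KO. The groups did not overlap, and KO replicate 2 was again the lowest KO library. Its log2 fold change was 0.56 ± 0.13 (adjusted p = 0.0981, edgeR), and 0.63 ± 0.12 (0.0399) without KO replicate 2.
Pecam1, the homophilic adhesion molecule CD31, was at 297, 361, 240.5 and 288 CPM in WT and at 467, 323, 438 and 538 CPM in KO. KO replicate 2 fell inside the WT range and the other KO libraries were above it. Its log2 fold change was 0.57 ± 0.18 (adjusted p = 0.143, edgeR), and 0.70 ± 0.16 (0.0523) without KO replicate 2, just short of the threshold.
Cdh5, VE-cadherin of the adherens junction, averaged 365 ± 47.9 CPM in WT and 494 ± 105 in KO (SD, n = 4), and its log2 fold change was 0.44 and 0.55 without KO replicate 2. KO replicate 2, at 373 CPM, was within the WT range.
Cldn5, the main claudin of endothelial tight junctions, differed from the others of its group. It was at 285, 143, 177 and 108 CPM in WT and at 236, 152, 149.7 and 175 CPM in KO. WT replicate 1 was the highest of all 8 libraries and all KO values lay within the WT range. The log2 fold change was -0.00 ± 0.29, and 0.07 ± 0.32 without KO replicate 2. Without WT replicate 1 it was 0.32.

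Of the 8 surface sialomucins and glycoproteins, the largest of the groups, 5 rose without KO replicate 2 (Emcn, Podxl, Cd34, Cd93 and Mmrn2). Mmrn2 is listed in this group although it is a matrix protein. All 8 had a log2 fold change above 0 in either comparison. Podxl, podocalyxin, an anti-adhesive sialomucin of the luminal surface, was at 124, 131, 114 and 166 CPM in WT and at 262, 87.0, 261 and 338 CPM in KO. KO replicate 2 was below every WT library while the other 3 were above every WT library, so this gene depended on that library more than any other of the 33. Its log2 fold change was 0.83 ± 0.35 (edgeR adjusted p = 0.223), and 1.10 ± 0.16 (0.0322) without it.
Emcn, endomucin, a sialomucin of capillary and venous endothelium, was at 46.2, 34.8, 46.2 and 43.3 CPM in WT and at 72.8, 37.8, 70.9 and 90 CPM in KO. KO replicate 2 lay inside the WT range and the other 3 above it. With all libraries the log2 fold change was 0.67 ± 0.24 (adjusted p = 0.168, edgeR), and 0.87 ± 0.14 (0.0322) without that library.
Cd34, a sialomucin of endothelium that is also on hematopoietic and adipose progenitors, was at 58.4, 66.9, 66.8 and 43.1 CPM in WT and at 101, 68.1, 89.9 and 108 CPM in KO. The groups did not overlap, but KO replicate 2 exceeded the highest WT library by little. The log2 fold change was 0.64 ± 0.18 (adjusted p = 0.127, edgeR), and 0.76 ± 0.16 (0.0465) without it.
Cd93, a C-type lectin-like receptor that binds Mmrn2, had a log2 fold change of 0.63 ± 0.27, and 0.84 ± 0.18 (edgeR adjusted p = 0.0472) without KO replicate 2. Mmrn2, an extracellular matrix ligand of Cd93 and Clec14a, had 0.57 ± 0.24, and 0.77 ± 0.15 (0.0371). Clec14a, the other receptor of Mmrn2, was the least different of the group, at 19.9 ± 2.8 CPM in WT and 24.1 ± 3.54 in KO (SD, n = 4), a log2 fold change of 0.28, and 0.35 without KO replicate 2.
The ligand Mmrn2 and 1 of its 2 receptors here thus passed the test without KO replicate 2, and the other did not. Without that library, Cd93 was not called with upper-quartile factors, with limma-voom, or when WT replicate 3 was left out as well. Whether the 2 receptors differ was not tested. Robo4, a roundabout receptor that stabilises vessels, and Ptprb, the phosphatase VE-PTP that acts on Tek and VE-cadherin, had log2 fold changes of 0.48 and 0.43, and of 0.63 and 0.62 without KO replicate 2, with adjusted p of 0.0682 and 0.0668 (edgeR).

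All 5 transcription factors were higher at an unadjusted p under 0.05 with 8 libraries, and 3 of 5 rose without KO replicate 2. The SOXF factors Sox7, Sox17 and Sox18 specify endothelial and arterial identity, and Erg and Fli1 are ETS factors that maintain endothelial gene expression. Sox7 had the largest log2 fold change of the 33 with 8 libraries, 0.94 ± 0.22 (edgeR adjusted p = 0.103), and 1.09 ± 0.19 (0.0335) without KO replicate 2. It was at 24.7, 35, 32 and 43.6 CPM in WT and at 81.7, 43.5, 61.2 and 72.9 CPM in KO. KO replicate 2 lay just under the highest WT library, and the other 3 KO libraries were clear of the WT range.
Sox17 was at 56.8, 37.3, 37.8 and 46.0 CPM in WT and at 90.8, 45.0, 74.3 and 95.6 CPM in KO, and its log2 fold change was 0.78 ± 0.24 (adjusted p = 0.14, edgeR), or 0.97 ± 0.17 (0.0335) without KO replicate 2. Only KO replicate 2 overlapped with WT. Sox18 averaged 111 ± 25.4 CPM in WT and 163 ± 38.4 in KO (SD, n = 4), with a log2 fold change of 0.56, and 0.66 (adjusted p = 0.0994, edgeR) without KO replicate 2.
Erg was at 25.6, 29.1, 18.0 and 24.8 CPM in WT and at 52.3, 31.6, 33.9 and 43.4 CPM in KO. Fli1 was at 55.3, 55.1, 47.8 and 56.0 CPM in WT and at 95.1, 61.4, 71.2 and 95.4 CPM in KO. Neither overlapped between the groups. The log2 fold change was 0.72 ± 0.20 for Erg (adjusted p = 0.118, edgeR) and 0.59 ± 0.16 for Fli1 (0.117). Without KO replicate 2, Fli1 rose by 0.70 ± 0.13 (adjusted p = 0.0367), and Erg was at 0.82 ± 0.19 (0.055).

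**Figure D3:**
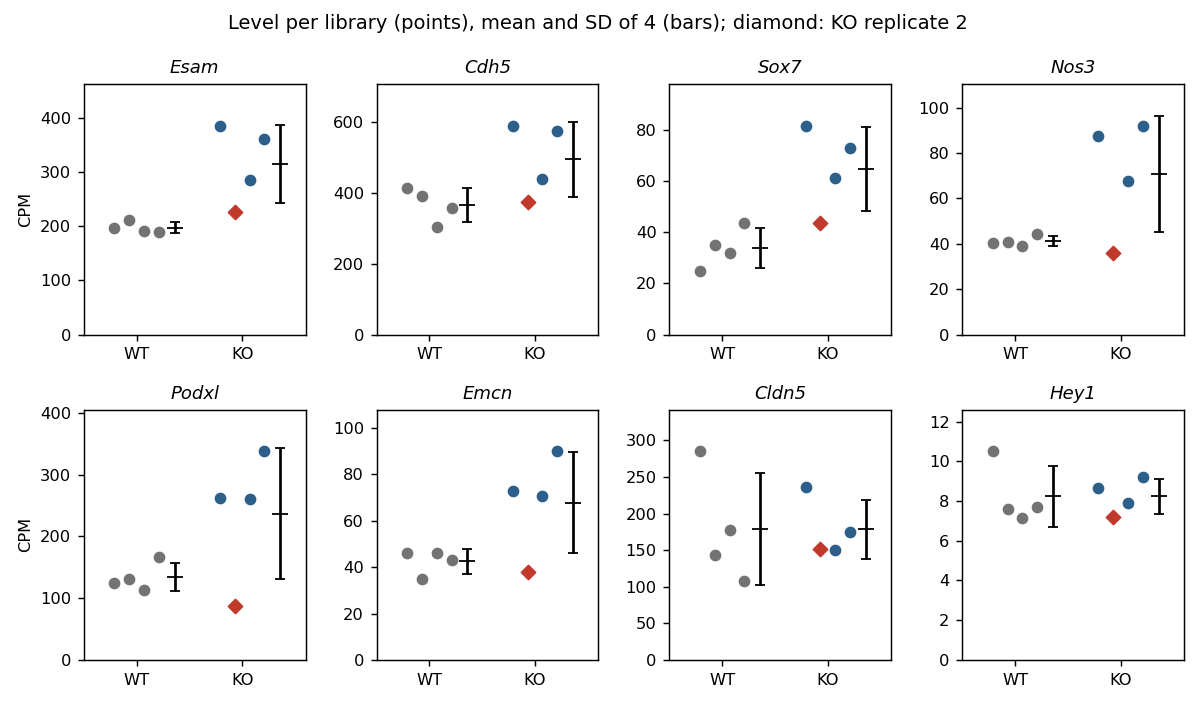
Levels of 8 endothelial markers in each library (points, CPM on axes that start at 0), WT in grey, KO in blue and KO replicate 2 as a red diamond, with the mean and SD of the 4 libraries of each group beside them. Esam shows no overlap, Cdh5, Sox7, Nos3, Podxl and Emcn overlap only through KO replicate 2, and in Cldn5 and Hey1 every KO library lies within the WT range.

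Of the 4 arterial genes, 0 were at an unadjusted p under 0.05 with 8 libraries, and 0 were called without KO replicate 2, where 1 was at an unadjusted p under 0.05 (edgeR). Dll4, the Notch ligand of arterial and tip cells, was at 9.60, 40.8, 9.41 and 22.5 CPM in WT and at 41.4, 24.7, 24.2 and 29.7 CPM in KO. The WT libraries covered most of the KO range, with WT replicates 1 and 3 low and WT replicate 2 nearly as high as the highest KO library. Its log2 fold change was 0.54 ± 0.48, the largest SE of the 33, and 0.63 ± 0.58 without KO replicate 2. It was 1.12 without WT replicate 2, and 0.31 and 0.30 without WT replicates 1 and 3.
Hey1, a transcription factor induced by Notch, was at 10.5, 7.61, 7.13 and 7.71 CPM in WT and at 8.67, 7.17, 7.91 and 9.19 CPM in KO. Every KO library lay within the WT range, and the log2 fold change was 0.00 ± 0.17, or 0.06 ± 0.18 without KO replicate 2. Gja4 and Gja5 encode the arterial connexins Cx37 and Cx40. Gja4 had a log2 fold change of 0.24 ± 0.21, and 0.34 ± 0.20 without KO replicate 2. Only KO replicate 1 was above its WT range, and without that library the value was 0.03; without WT replicate 4 it was 0.16. Gja5 was at 4.40 ± 1.15 CPM in WT and 6.46 ± 2.49 in KO (SD, n = 4), a log2 fold change of 0.55 ± 0.33, and 0.79 ± 0.24 (edgeR adjusted p = 0.0967) without KO replicate 2. Whether the arterial genes differ from the rest of the list was not tested.

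Of the 4 signalling receptors and their partners, 3 were higher at an unadjusted p under 0.05, and S1pr1 and Rasip1 rose without KO replicate 2. S1pr1, the sphingosine 1-phosphate receptor that supports barrier function, was at 336, 306, 258 and 258 CPM in WT and at 497, 314, 455 and 540.4 CPM in KO. KO replicate 2 was within the WT range and the others were above it. The log2 fold change was 0.64 ± 0.18 (adjusted p = 0.122, edgeR), and 0.78 ± 0.14 (0.0342) without KO replicate 2.
Rasip1, a Rap1 and Ras interactor needed for vessel lumen formation, had 0.69 ± 0.19 (adjusted p = 0.122, edgeR), and 0.84 ± 0.15 (0.0335) without KO replicate 2. Ushbp1 was at 215, 180.1, 164 and 194 CPM in WT and at 464, 218, 249 and 326 CPM in KO, with no overlap. KO replicate 1 was far above the other KO libraries, and the log2 fold change of 0.74 ± 0.23 became 0.88 ± 0.20 (adjusted p = 0.0545, edgeR) without KO replicate 2 and 0.48 without KO replicate 1.
Eng, endoglin, a co-receptor for BMP9 and TGF-beta, was at 402, 299, 298 and 298 CPM in WT and at 471, 283, 399 and 512 CPM in KO. WT replicate 1 stood well above the other 3 WT libraries, and KO replicate 2 was below all of them. This gave a log2 fold change of 0.36 ± 0.19, and 0.51 ± 0.16 (edgeR adjusted p = 0.101) without KO replicate 2.

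Among the genes of vessel tone, permeability and water transport, Nos3, the endothelial nitric oxide synthase, was the 1 of 3 that rose without KO replicate 2. It was at 40.3, 40.8, 39.2 and 44.3 CPM in WT and at 87.6, 35.9, 67.5 and 92.0 CPM in KO. The WT values were tight, KO replicate 2 was below all of them, and the other 3 KO libraries were well above. Its log2 fold change was 0.78 ± 0.26 (adjusted p = 0.155, edgeR), and 1.00 ± 0.13 (0.0322) without KO replicate 2, where its mean was 2 times that of WT.
Aqp1, a water channel of continuous capillaries, had the highest level per kilobase of exon of the 33, with 429.6 CPM per kb in WT. It was at 935, 1508, 890.5 and 1181 CPM in WT and at 1531, 993, 1629.5 and 1996 CPM in KO, and its log2 fold change was 0.45 ± 0.24 (adjusted p = 0.291, edgeR), or 0.61 ± 0.20 (0.121) without KO replicate 2. WT replicate 2 came close to the KO libraries, and without KO replicate 4 the log2 fold change was 0.29. Plvap, which forms the diaphragms of fenestrae and caveolae, averaged 41.2 ± 16.4 CPM in KO against 35.8 ± 4.56 in WT (SD, n = 4). KO replicate 2 had the lowest Plvap level of all 8 libraries, 21.6 CPM, and the log2 fold change was 0.20 ± 0.27, or 0.42 ± 0.18 without it; without KO replicate 4 it was -0.01.

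Of the 3 secreted proteins, only Sparcl1 rose without KO replicate 2. Sparcl1, a matricellular protein made by endothelial and mural cells, was at 299, 296, 246 and 276 CPM in WT and at 403, 309.9, 448 and 466 CPM in KO. The groups did not overlap, and KO replicate 2 was close to WT. For Sparcl1 the log2 fold change was 0.54 ± 0.15 (adjusted p = 0.118, edgeR), and 0.65 ± 0.12 (0.0367) without it.
Vwf, von Willebrand factor, stored in endothelial granules and in platelets, was at 28.6 ± 4.77 CPM in WT and 32.5 ± 13.5 in KO (SD, n = 4), a log2 fold change of 0.19 ± 0.29, and 0.41 ± 0.19 without KO replicate 2. KO replicate 2 was the lowest of all 8 libraries for Vwf, at 16.4 CPM, and KO replicate 4 the highest, at 49.0 CPM, without which the log2 fold change was -0.08. Egfl7, an endothelial matrix protein, had a log2 fold change of 0.31 ± 0.24, and 0.47 ± 0.20 without KO replicate 2, but 0.07 without KO replicate 1. Tmem255b, a transmembrane protein listed here as an endothelial marker with no role assigned, was the gene with the fewest counts of the 33, 61 in its lowest library. It was at 2.75 ± 0.879 CPM in WT and 5.22 ± 1.99 in KO (SD, n = 4), a log2 fold change of 0.92 ± 0.36 (edgeR adjusted p = 0.194), and 1.16 ± 0.28 (0.0596) without KO replicate 2.

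Expressed per kilobase of annotated exon (GENCODE M21), the WT levels of the 33 markers spread from 0.766 ± 0.199 CPM per kb for Gja5 to 429.6 ± 108 for Aqp1 (SD, n = 4). Cldn5 came next after Aqp1 at 126 ± 53.9, followed by Sparcl1 at 95.1 ± 8.30, S1pr1 at 95.0 ± 12.5, Cdh5 at 86.9 ± 11.4 and Eng at 80.1 ± 12.8. These neighbours after Aqp1 do not differ beyond their spread. Annotated exons of 9 members overlap another gene, and for 6 of them that gene is in the count table: Egfl7 with Agpat2, Eng with Fpgs, Gja5 with Gpr89, Nos3 with Atg9b, Tmem255b with Gas6 and Rasip1 with Izumo1. Rasip1 and Izumo1 lie on the same strand. Whether counting used strand is not given in the sources used here, so reads of these pairs could not be assigned with certainty.

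Of the members, 10 are also expressed by blood cells and 5 by mural or stromal cells, with 2 on both lists, which leaves 20 on neither. The 20 had a mean log2 level relative to WT of 0.89, 0.47 and 0.77 in KO replicates 1, 3 and 4 and of -0.06 in KO replicate 2. For the 10 shared with blood cells the values were 0.71, 0.48 and 0.85, and 0.01 in KO replicate 2. On this scale KO replicates 1, 3 and 4 were above WT for the markers on neither list too. The part of blood or stromal cells in these values was not tested. With 8 libraries, 4 of the 10 shared with blood cells did not overlap (Icam2, Erg, Fli1 and Cd34), against 5.8% of all genes. The same held for 2 of the 5 shared with mural or stromal cells (Cd34 and Sparcl1). Of the 20 on neither list, only Esam and Ushbp1 did not overlap.

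A separate list of 40 other endothelial genes gave a like picture in direction and median, but not in the share without overlap. With 8 libraries 38 of 40 were higher and 0 were called, with a median log2 fold change of 0.53 and 19 at an unadjusted p under 0.05 (edgeR). Over all genes, 50.5% were higher, 0.0% were called and 10.4% were higher at an unadjusted p under 0.05. Without KO replicate 2, 39 were higher (48.3% of all genes), 14 rose (1.7%) and 0 fell, with a median of 0.73. KO replicate 2 was the lowest KO library for 38 of the 40. The genes with the smallest p were Efnb2, the arterial ephrin, at 1.00 ± 0.22 (adjusted p = 0.0981, edgeR), Tek, the angiopoietin receptor TIE2, at 0.67 ± 0.18 (0.118), Ramp2, the adrenomedullin co-receptor, at 0.68 ± 0.19 (0.121), and Tie1, at 0.90 ± 0.25 (0.122). All 4 rose without KO replicate 2, with adjusted p from 0.0322 to 0.0407. Efnb2 and Ramp2 were the only 2 of the 40 with every KO library above every WT library. Over all genes the share was 5.8%, and among the members it was 7 of 33. This list was also drawn up with earlier results known and is not independent support.
The venous list was mixed in direction, and most of the lymphatic list was lower in KO. Of 6 venous markers 4 were higher, with a median of 0.21. Vcam1, a leukocyte adhesion molecule of activated endothelium, had the smallest p, at 1.18 ± 0.34 (adjusted p = 0.133, edgeR), or 0.93 ± 0.32 (0.14) without KO replicate 2. It was at 8.77 to 10.8 CPM in WT and at 8.2, 31.4, 24.8 and 20.9 CPM in KO, so that KO replicate 2 was its highest library and KO replicate 1 its lowest. Ephb4, the venous receptor of ephrin-B2, was at 0.65 ± 0.26 (adjusted p = 0.196, edgeR), or 0.87 ± 0.14 (0.0322) without KO replicate 2. Of the 6 lymphatic markers tested 5 were lower and 1 was higher, with a median of -0.65 (-0.56 without KO replicate 2) and 0 called (edgeR; 2 at an unadjusted p under 0.05). These 2 were Pdpn, podoplanin, at -1.09 ± 0.47 (adjusted p = 0.221), and Lyve1, a hyaluronan receptor also on macrophages, at -0.92 ± 0.40 (0.223). Both were low, at 0.468 to 3.01 CPM for Pdpn and 0.937 to 4.39 CPM for Lyve1. The highest Pdpn value was that of WT replicate 3, against 1.0 to 1.26 CPM in the other WT libraries. Without KO replicate 2 and WT replicate 3 the log2 fold changes were -0.59 for Pdpn and -0.71 for Lyve1. In that comparison 5 of the 6 were still lower, and the 1 gene at an unadjusted p under 0.05 was higher in KO (edgeR). Flt4, VEGFR3, which is also on blood capillaries, was the gene that was higher, at 0.63 ± 0.30 (0.252).

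**Figure D4:**
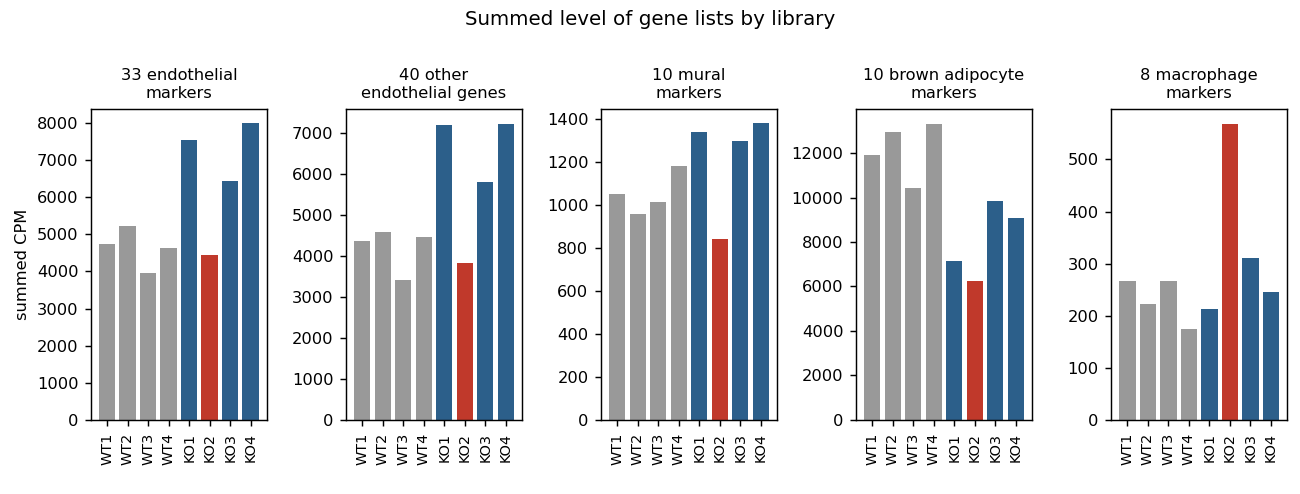
Summed CPM of 5 gene lists in each library (bars from 0; WT grey, KO blue, KO replicate 2 red). Both endothelial lists are higher in KO replicates 1, 3 and 4 than in every WT library and at the WT level in KO replicate 2, the mural list follows with a smaller difference, the brown adipocyte list is lower in all KO libraries, and KO replicate 2 is highest in macrophage markers.

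Summed over the 33 members, the level was 3962 to 5211 CPM in WT, 6434 to 7986 CPM in KO replicates 1, 3 and 4, and 4450.3 CPM in KO replicate 2. The 10 mural cell markers (pericytes and smooth muscle) summed to 961 to 1184 CPM in WT and to 1299 to 1381 CPM in the same 3 KO libraries, with 843 CPM in KO replicate 2. Rgs5 alone averaged 607 CPM of a mean sum of 1053 CPM in WT, and Tagln was under 1 CPM in every library. With 8 libraries 8 of the 10 were higher and 2 were lower, Cspg4 and Kcnj8, each at a log2 fold change of -0.32. The median log2 fold change of the 10 was 0.21, and 0.34 without KO replicate 2. In either comparison 0 of 10 were called, with 0 and 4 at an unadjusted p under 0.05 (edgeR).
The 10 brown adipocyte markers summed to 10433 to 13328 CPM in WT and to less in every KO library, 6249 to 9859 CPM. Ucp1 alone averaged 5983 CPM of a mean sum of 12151 CPM in WT. Of the 10, 8 were lower and 2 were higher, Prdm16 at a log2 fold change of 0.34 and Pparg at 0.18. The median of the 10 was -0.66, and 0 were called, with 6 at an unadjusted p under 0.05 (edgeR). In 4 of the 10 every KO library was below every WT library, against 1051 of the 13901 genes tested. Without KO replicate 2, 1 of the 10 brown adipocyte markers fell, against 123 of the 14027 genes tested. It was the fatty acid elongase Elovl3, which fell by 1.06 on the log2 scale (adjusted p = 0.0335, edgeR). CPM values are shares of a library, and the part of the lower adipocyte share in the higher endothelial share was not tested. The 8 macrophage markers were all higher with 8 libraries (median 0.42) and 4 of 8 were higher without KO replicate 2 (median 0.05). The 9 T and NK cell markers were all higher with 8 libraries (median 2; 0 called by edgeR, 5 at an unadjusted p under 0.05). Without KO replicate 2, 8 of 9 were higher with a median of 0.84, a value above the 0.70 of the endothelial markers, and 1 was at an unadjusted p under 0.05. Their summed level without KO replicate 2 was 16.3 to 33.6 CPM in KO and 2.99 to 29.6 CPM in WT, which overlap. The part of immune cells in the endothelial values was not tested. Fibroblast markers had a median of -0.20 and erythroid markers of -0.12. Platelets also hold Vwf and Pecam1, and their markers summed to 10.7 to 21 CPM in WT and 17.1 to 20.8 in KO, with Gp9 under 1 CPM throughout. The mesothelial markers Msln, Upk3b and Krt19 were under 1 CPM in every library.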

How the data were processed

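Polyadenylated RNA of adipose tissue was sequenced in 8 libraries, 4 WT and 4 KO, grouped by the titles. The deposited table holds whole-number counts per gene and library. The submitters' processing notes name the build GRCm39. Aligner, counter, annotation and use of strand in counting are not given in the sources. Second strands carried dUTP, per the labels' protocols. Symbols came from GENCODE M21 and were found for 18321 of 18395 genes. Since that annotation is of another build, it gave only names, exon lengths and overlaps; promoter windows are those of RefSeq on GRCm38.p6, and 18 of the 33 members had none.

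Genes were kept by filterByExpr (13901 with 8 libraries, 14027 without KO replicate 2), scaled by TMM, and KO was compared with WT by the robust quasi-likelihood test of edgeR 4.0.16 in R 4.3.3, with group as the only term and Benjamini-Hochberg adjustment over all genes at 0.05. Each SE is the log2 fold change over the root of its F. Log2 CPM used a prior count of 2. The fit was run on simulated counts to check the size of large fold changes, and this does not test the calls made here. Totals were 33672272 to 43253559 counts a library. The labels name no molecular identifiers.

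The members and lists were chosen with earlier results of these data known. All 33 members are named, with Fermt2 and at most 4 genes of smallest p from each other list. Rgs5, Prdm16, Pparg, Klf2, Klf4, Bcl6b and the markers under 1 CPM are named outside this rule, after their values were seen. Wt1 of the mesothelial list was not matched. Alternatives were DESeq2 1.42.0 and its factors, upper-quartile factors, total library size only, no filter, a CPM of at least 1 in 4 libraries, limma 3.58.1 (voom, with and without sample quality weights), a fit without robust estimation, a replicate block, removal of mitochondrially encoded genes, and leaving out libraries. Leaving out further libraries from the comparison without KO replicate 2 was added after seeing the data, as were the counts of members that were higher, nominal or not overlapping under those settings.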

Additional observations from a re-analysis of the deposited data

Results flagged for a closer look

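In 2 of the 66 groups of 4 libraries examined (33 markers in WT and in KO), 1 library lay far from the others, with a gap to its nearest neighbour that exceeded the 95% critical value of Dixon's test. Eng was at 402 CPM in WT replicate 1, against 298 to 299 CPM in the other WT libraries. Fli1 was at 47.8 CPM in WT replicate 3, against 55.1 to 56.0 CPM in the others. Chance flags about 1 in 20 groups, so 2 of 66 is no more than that rate gives.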

How the results depend on the processing

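Over the alternatives the median log2 fold change of the 33 markers stayed between 0.48 and 0.82, the latter with total library size only, which moves the median of all genes from 0.00 to 0.26. Of the settings of single markers, 567 kept direction and side of the threshold, 70 passed it in the same direction and 23 changed sign. Members called with 8 libraries were 0 in the main comparison, 13 with total library size only, 13 with DESeq2, 16 with limma-voom and quality weights, 14 without KO replicate 2 and WT replicate 3, and 0 to 14 when libraries were left out in turn. Genes called were 882, 1113, 911 and 461 under those settings, 1 with no filter, and 0 to 361 when libraries were left out in turn. Without KO replicate 2, members called went from 14 to 27 with total library size only, 25 with DESeq2, 22 with limma-voom and quality weights, 0 without robust estimation, and 0 to 14 when a further library was left out. Members without overlap went from 7 to 24 without KO replicate 2, and to 24 also without WT replicate 3; other endothelial genes called went from 0 to 14 and 15. The cause was not tested.

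Same-numbered WT and KO libraries deviated together with correlations of -0.051, 0.0439, -0.13 and 0.224, against -0.299 to 0.159 for the other pairs. With 4 libraries in each group, these values cannot decide whether the numbers pair the samples. With a replicate block, members called were 0 with 8 libraries and 0 without KO replicate 2, where the smallest adjusted p among the members was 0.0519.

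Signs changed for 4 genes near 0. Cldn5, at -0.00, became 0.05 with upper-quartile factors, 0.27 with total library size only, 0.00 with no filter, 0.01 with the stricter filter, 0.06 with limma-voom, 0.10 with quality weights, 0.07 with the replicate block, 0.02 without mitochondrially encoded genes, 0.06 without KO replicate 2 and WT replicate 3, and -0.18 to 0.32 when libraries were left out in turn. Hey1, at 0.00, became -0.00 with DESeq2 factors, with DESeq2 and without both libraries, and -0.06 to 0.14 when libraries were left out in turn. Plvap ran from -0.01 to 0.42 and Vwf from -0.08 to 0.41 when libraries were left out in turn, both lowest without KO replicate 4, and Plvap was at 0.49 without KO replicate 2 and WT replicate 3. The lowest count of any marker in a library was 61, for Tmem255b.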

Other observations

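A few endothelial genes were highest in WT replicate 1. Klf2, a flow-induced transcription factor, was at 280.2 CPM in WT replicate 1, against 84.8 to 144 CPM in the other WT libraries and 136 to 203 CPM in KO. Klf4, its relative, was at 298 CPM, against 79.5 to 142 CPM in the other WT libraries and 90.2 to 169 CPM in KO. Bcl6b, an endothelial transcriptional repressor, was at 109.7 CPM, against 37.7 to 45.0 CPM in the other WT libraries and 41.0 to 101 CPM in KO. Cldn5 and Hey1 were also highest of all 8 libraries in WT replicate 1, while Dll4 was low there. These genes were chosen after their values were seen, and no test of them was made.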
